A study of Rattus norvegicus with 63 samples.

Results

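The AP-1 Fos and Jun family comprises 7 genes, Fos, Fosb, Fosl1, Fosl2, Jun, Junb and Jund, of the 14218 genes that the probe set annotation names on these rat arrays. The members were chosen by gene symbol. A symbol had to be the single one annotated to a probe set, and 13 probe sets met this. Where a gene had several, the one of highest mean log2 signal over all arrays was used, and the further probe sets are described beside it.

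AP-1 is a transcription factor made of a pair of proteins that grip DNA through a basic region and zip together through a leucine zipper. Jun proteins can pair with each other or with Fos proteins, whereas Fos proteins need a Jun partner. In neurons, Fos, Fosb, Junb and other immediate early genes are switched on within minutes to hours of calcium and cAMP signals. This runs through the factors CREB, SRF and ELK1, of which CREB binds the CRE and SRF the CArG box. In the striatum, acute psychostimulants induce Fos, and repeated exposure is known for a long-lived truncated product of Fosb, called ΔFosB.

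The arrays came from male Wistar rats that had learned to self-administer a psychostimulant intravenously, and from saline controls. In the naive cohort all rats first received saline injections, and were then conditioned in a place preference task with amphetamine or methamphetamine at 1.25 or 5 mg/kg, methylphenidate at 5 mg/kg, or saline. In the pretreated cohort the stimulant groups first received amphetamine, methamphetamine or methylphenidate at 5 mg/kg. They were then conditioned with the same stimulant at 5 mg/kg, and this cohort had its own saline controls. In both cohorts the first injections, of stimulant or saline, were given 2 times a day for 7 days from 6 weeks of age. Infusions held 0.1 mg/kg of amphetamine or methamphetamine, 0.25 mg of methylphenidate, or saline, so the infused doses of methylphenidate and the amphetamines are not matched. Brains were taken a day after the last session, from the rats that had self-administered most robustly. The striatum, dissected as rostral caudate putamen with nucleus accumbens, gave 32 arrays and the prefrontal cortex (PFC) 31, in 20 groups of 2 to 5. The labels speak of pools of RNA but also of about as many rats as arrays, so the p-values may measure the spread between pools rather than between rats.

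The naive arrays were of 2 kinds, told apart by the bacterial BioB transcript that is spiked into each hybridisation. In 16 naive arrays, namely all of amphetamine 5 mg/kg and methylphenidate 5 mg/kg and saline arrays 4 and 5 of each region, its log2 signal was 5.96 to 6.68. In the other 23 naive arrays and all pretreated arrays it was 9.01 to 10.63. The log2 ratio of 3′ to 5′ Gapdh signal, a measure of RNA and labelling quality, was 0.917 to 1.23 on the low-BioB and 0.458 to 1.08 on the high-BioB naive striatal arrays. In the naive PFC it was 0.584 to 1.20 on the low-BioB and 0.251 to 0.800 on the high-BioB arrays. A low BioB signal and these 2 stimulant groups therefore cannot be told apart in a comparison with methamphetamine, and only the saline arrays hold both kinds. The label of striatal identity was checked against striatal and cortical neuron markers. The mean log2 signal of the striatal markers exceeded that of the cortical markers by 4.24 to 7.00 on 31 striatal arrays, but on 1 array, naive methamphetamine 1.25 mg/kg replicate 1, the difference was -0.70, against -1.83 to 0.62 on the PFC arrays. A description label of naive striatal saline array 1 names the PFC, but its marker difference of 6.61 lay within the striatal range.

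Fos, Jun and Jund, whose signals were above the lowest 40% of genes, passed the signal filter in both regions and entered the test. Fosb, Fosl1, Fosl2 and Junb did not pass it, and are described by their levels and by a fit without the filter over all 14218 genes. In the 4 comparisons of the mean of the stimulant groups with the saline group of the same region and cohort, none of the 3 tested members passed limma at an adjusted p of 0.05. Across all 8531 tested genes, 0.0586% passed in naive PFC, 0.0703% in pretreated PFC, 0.0938% in naive striatum and 0.363% in pretreated striatum. At an unadjusted p below 0.05, Fos alone of the 3 was found in naive PFC, pretreated PFC and pretreated striatum, and no member in naive striatum, where 8.73%, 5.45%, 16.2% and 11.5% of all genes had an unadjusted p that low, in the same order.

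**Figure D1:**
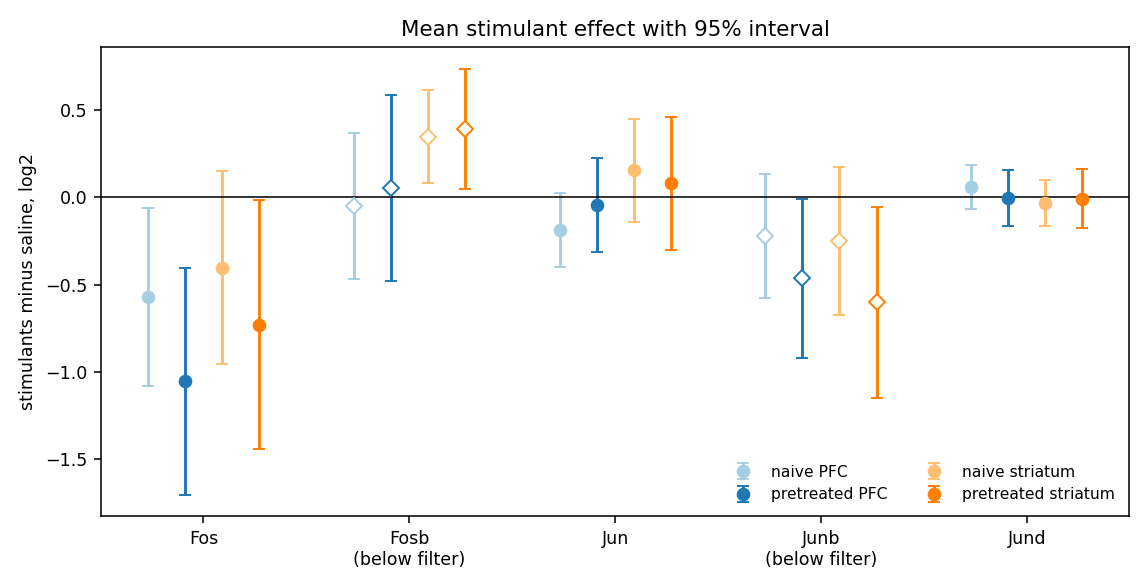
Mean stimulant minus saline difference in log2 signal (vertical axis) for 5 members in each region and cohort, with 95% intervals from limma. Open diamonds mark members below the signal filter. Fos lay below zero in all 4 comparisons, from -1.05 in pretreated PFC to -0.40 in naive striatum, and Jund lay within 0.06 of zero.

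Fos, read from probe set 1375043_at, encodes the Fos protein and is the standard marker of recent neuronal activity. In pretreated PFC its log2 signal was 8.40, 9.21 and 9.75 on the amphetamine arrays, 7.94, 8.45 and 8.88 on the methamphetamine arrays and 9.95, 8.99 and 9.49 on the methylphenidate arrays, against 10.21, 9.84 and 10.13 on the saline arrays. Of the 9 stimulant arrays 8 lay below every saline array, and the remaining one, methylphenidate array 1, lay between them. The mean difference was -1.05 ± 0.318 (SE; 95% interval -1.70 to -0.40), which is a signal 0.482 times that of saline, with an unadjusted p of 0.00254 and a limma adjusted p of 0.367. By stimulant the difference from saline was -1.64 ± 0.389 for methamphetamine (limma adjusted p = 0.255), -0.94 ± 0.389 for amphetamine (0.702) and -0.58 ± 0.389 for methylphenidate (0.823). The methamphetamine arrays had the lowest mean, and none of them reached the saline range, a separation that 4.96% of all genes had downwards in these 2 groups of 3. With 1 array left out at a time, the amphetamine difference ran from -1.25 to -0.58 and the methylphenidate difference from -0.82 to -0.34.

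In pretreated striatum, Fos was 7.67, 8.32 and 8.97 on the amphetamine arrays, 8.17, 9.90 and 8.58 on the methamphetamine arrays and 8.64, 8.66 and 9.27 on the methylphenidate arrays, against 9.69, 9.20 and 9.36 on the saline arrays. Here 7 of 9 stimulant arrays lay below every saline array, but methamphetamine array 2 lay above all of them, so the groups overlapped. The mean difference was -0.73 ± 0.348 (95% interval -1.44 to -0.02; limma adjusted p = 0.297). The 3 stimulants differed from saline by -1.10 ± 0.426 for amphetamine, -0.53 ± 0.426 for methamphetamine and -0.56 ± 0.426 for methylphenidate, with limma adjusted p of 0.423, 0.558 and 0.613 in that order. The methamphetamine value rested on single arrays, at -1.04 without array 2 and -0.18 without array 1. In bulk tissue, fewer cells that express a gene and less of its RNA per cell cannot be told apart, which holds for every member below.

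**Figure D2:**
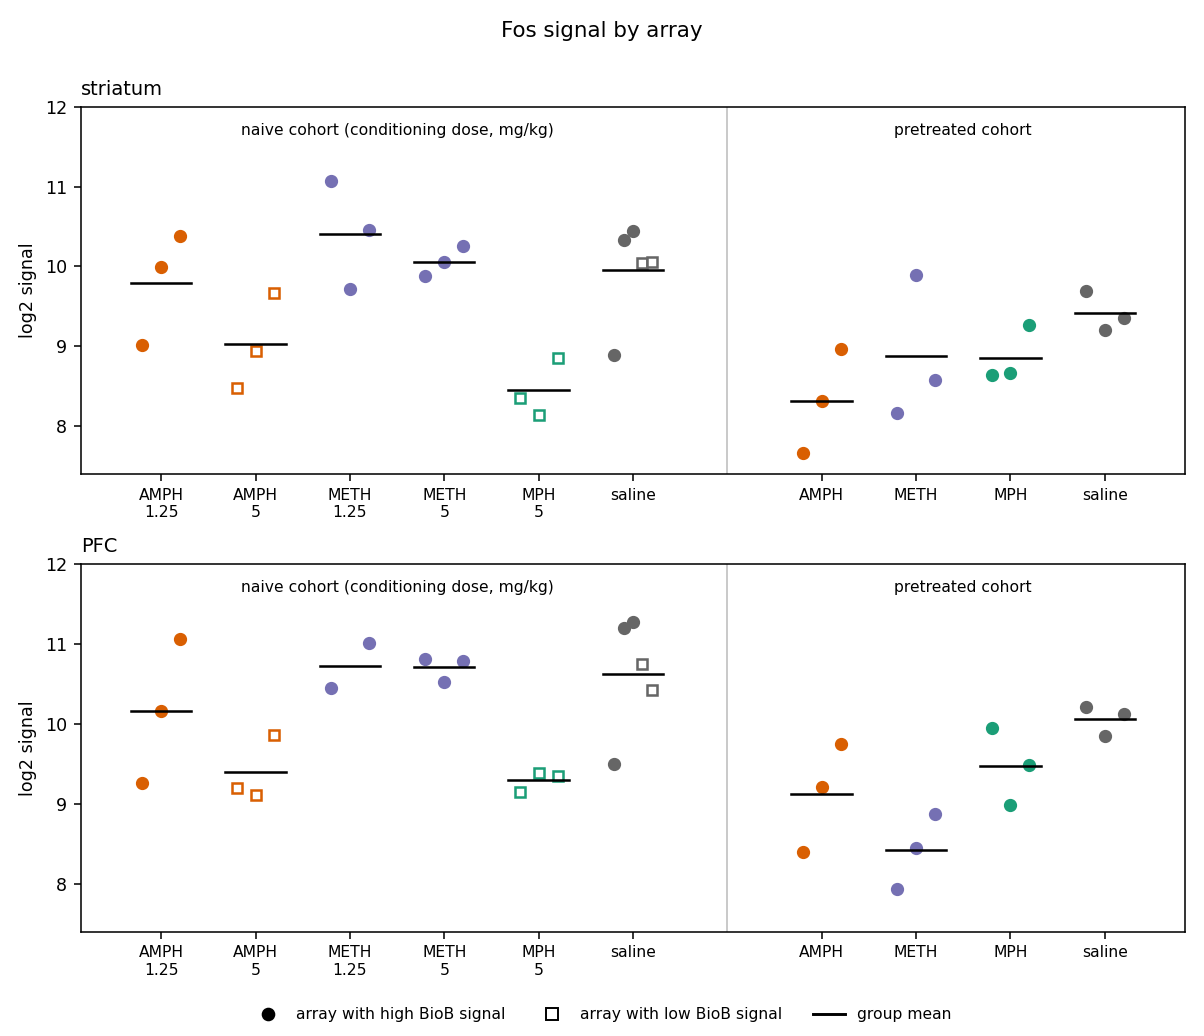
Fos log2 signal (vertical axis) of every array by group, striatum above and PFC below, with stimulant groups left of the saline group of their cohort; filled circles are high-BioB and open squares low-BioB arrays, and bars are group means. In the naive cohort the open squares of amphetamine 5 mg/kg and methylphenidate 5 mg/kg lie below the 2 open squares of saline, and in pretreated PFC 8 of 9 stimulant arrays lie below the saline arrays.

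In naive PFC the 5 stimulant groups did not share a direction. Fos was 10.45 and 11.01 on the methamphetamine 1.25 mg/kg arrays and 10.82, 10.52 and 10.78 on those of 5 mg/kg, against 9.50, 11.20, 11.28, 10.75 and 10.42 on the saline arrays. Methamphetamine therefore lay inside the saline range at both doses, with differences of 0.10 ± 0.399 and 0.08 ± 0.348. Fos was 9.26, 10.17 and 11.07 on the amphetamine 1.25 mg/kg arrays, 9.21, 9.12 and 9.87 on those of 5 mg/kg, and 9.15, 9.39 and 9.36 on the methylphenidate arrays. All 3 methylphenidate arrays lay below every saline array, as did 2 of the 3 of amphetamine 5 mg/kg. Of all genes, 3.18% had every methylphenidate array below every saline array here. The difference from saline was -1.33 ± 0.348 for methylphenidate (limma adjusted p = 0.148) and -1.24 ± 0.348 for amphetamine 5 mg/kg (0.276), against -0.47 ± 0.348 for amphetamine 1.25 mg/kg (0.626), which ran from -0.92 to -0.01 with 1 array left out. Over the 5 groups, the mean difference was -0.57 ± 0.249 (adjusted p = 0.524).

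In naive striatum Fos was 8.36, 8.14 and 8.86 on the methylphenidate arrays and 8.48, 8.94 and 9.67 on the amphetamine 5 mg/kg arrays, against 8.89, 10.32, 10.45, 10.05 and 10.06 on the saline arrays. The methylphenidate arrays again lay below all saline arrays, as in 4.02% of all genes, and saline array 1 lay apart from the other 4. Fos was 9.02, 9.99 and 10.38 on the amphetamine 1.25 mg/kg arrays, 11.06, 9.71 and 10.45 on the methamphetamine 1.25 mg/kg arrays and 9.88, 10.05 and 10.25 on the methamphetamine 5 mg/kg arrays, all within or above the saline range. Against saline, the difference was -1.50 ± 0.381 for methylphenidate (limma adjusted p = 0.0995) and -0.92 ± 0.381 for amphetamine 5 mg/kg (0.254). It was 0.46 ± 0.381 for methamphetamine 1.25 mg/kg (0.630), 0.11 ± 0.381 for methamphetamine 5 mg/kg (0.950) and -0.16 ± 0.381 for amphetamine 1.25 mg/kg (0.952). The methamphetamine 1.25 mg/kg array at 11.06 is the striatal array of cortical marker profile, and without it that difference was 0.13 (0.972). Without saline array 1 the methylphenidate difference was -1.77 and passed, with an adjusted p of 0.0478. Over the 5 groups the mean difference was -0.40 ± 0.269 (adjusted p = 0.614).

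The groups with the lower naive Fos signals were those whose arrays had a low BioB signal. Among the low-BioB arrays alone, Fos in the PFC was 9.12 to 9.87 on 6 stimulant arrays, against 10.42 and 10.75 on 2 saline arrays. In the striatum it was 8.14 to 9.67 on 6 low-BioB stimulant arrays, against 10.05 and 10.06 on the 2 saline arrays. Neither pair of groups overlapped, which was found downwards in 4.15% of all genes in the PFC and 5.08% in the striatum. The difference was -1.24 ± 0.397 in the PFC (adjusted p = 0.827) and -1.31 ± 0.434 in the striatum (0.953). Among the high-BioB arrays the difference was -0.13 in the PFC and 0.20 in the striatum, where the sign turned. The 2 low-BioB saline arrays of each region also differed from the stimulant arrays in the haemoglobin gene Hbb. Its log2 signal was 10.19 and 9.22 on them in the PFC and 10.54 and 9.48 in the striatum. On the low-BioB stimulant arrays it was 12.97 to 13.61 in the PFC and 12.97 to 13.86 in the striatum. The part of the array kind in the naive values was not tested beyond this, and that of blood was not tested.

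Over all 16 comparisons of 1 stimulant group with its saline group, no tested member passed limma, while 7 of 48 member tests had an unadjusted p below 0.05, as had 11.9% of the tests of all genes. The share of all genes that passed in these comparisons was 0 for methylphenidate 5 mg/kg in naive PFC and for amphetamine 5 mg/kg in naive and amphetamine in pretreated striatum. It was 11.1% for methamphetamine 1.25 mg/kg in naive PFC, a group of 2 arrays, which stood apart from the rest. In naive PFC it was otherwise 0.492% for amphetamine 1.25 mg/kg, 0.0117% for amphetamine 5 mg/kg and 0.0352% for methamphetamine 5 mg/kg, and in pretreated PFC 0.0234% for amphetamine, 0.0117% for methamphetamine and 0.0938% for methylphenidate. In naive striatum it was 0.34% and 0.188% for amphetamine and methamphetamine at 1.25 mg/kg, 0.328% for methamphetamine 5 mg/kg and 0.129% for methylphenidate, and in pretreated striatum 0.703% for methamphetamine and 0.0821% for methylphenidate. With so few genes passing, a count of 0 members is close to the background. Ordered by mean, the 10 PFC groups ran from 10.73 for naive methamphetamine 1.25 mg/kg to 8.42 for pretreated methamphetamine, and the 10 striatal groups from 10.41 for naive methamphetamine 1.25 mg/kg (10.08 without the array of cortical profile) to 8.32 for pretreated amphetamine. Each of the 9 neighbouring pairs of groups in that order overlapped, in both regions.

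Amphetamine and methamphetamine differ by an N-methyl group, and methylphenidate carries a piperidine ring and a methyl ester. Their readouts were compared at the same conditioning dose in 14 pairs, 7 per region, with p adjusted over the genes and, for each member, also over the 14 pairs. The pairs share a cohort's arrays and are not independent of each other. In naive striatum at 5 mg/kg, Fos was lower with methylphenidate (8.45 ± 0.368) than with methamphetamine (10.06 ± 0.187; SD, n = 3 each), by -1.61 ± 0.426 (95% interval -2.48 to -0.74). This is the only pair in which a tested member passed, with a limma adjusted p of 0.049 over the genes and 0.00812 over the pairs, where 1.57% of all genes passed. The call was lost when any 1 of the 6 arrays compared was left out, with adjusted p of 0.0506 to 0.172. With the BioB level as a block the difference was as large, at -1.78, but its SE was 0.651 and its adjusted p 0.529. Without the signal filter the adjusted p was 0.0716. In naive PFC the same pair differed by -1.41 ± 0.389 (adjusted p = 0.0563 over the genes and 0.00812 over the pairs, with 1.85% of genes passing).

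Methamphetamine exceeded amphetamine at 5 mg/kg by 1.31 ± 0.389 in naive PFC (limma adjusted p = 0.0713 over the genes and 0.0103 over the pairs, 1.45% of genes passing) and by 1.03 ± 0.426 in naive striatum (0.190 and 0.063, 1.58% of genes). Methylphenidate and amphetamine at 5 mg/kg, whose arrays were all low in BioB, differed by -0.10 in naive PFC (95% interval -0.89 to 0.70) and by -0.58 in naive striatum (-1.45 to 0.29), intervals that leave room for a difference of either sign, and 0 genes passed in either. At 1.25 mg/kg, methamphetamine minus amphetamine was 0.57 in the PFC and 0.61 in the striatum, both with an adjusted p of 0.274 over the pairs, where 6.26% and 0 of the genes passed. Without the striatal array of cortical profile, the striatal mean with methamphetamine was 10.08, against 9.80 with amphetamine. With 1 array left out, the difference ran from 0.11 to 1.02 in the PFC and from 0.22 to 0.96 in the striatum. In the pretreated cohort, whose arrays were all high in BioB, the order in the PFC was another one. Methamphetamine minus amphetamine was -0.70 (adjusted p over the pairs = 0.195), methylphenidate minus amphetamine 0.36 (0.428) and methylphenidate minus methamphetamine 1.06 ± 0.389 (0.0395 over the pairs, but 0.576 over the genes). In pretreated striatum, methylphenidate minus methamphetamine was -0.02 (95% interval -0.90 to 0.85), and the remaining pairs were 0.54 and 0.56. In the 6 pretreated pairs 0 genes passed over all genes, and over all 14 pairs 6 of 42 tests of the filtered members had an unadjusted p below 0.05, beside 10.7% of the tests of all genes.

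The dose of conditioning was compared within amphetamine and within methamphetamine. For amphetamine, Fos at 5 mg/kg minus 1.25 mg/kg was -0.77 in the PFC (limma adjusted p = 0.216, 7.07% of genes passing) and -0.77 in the striatum (0.335, 1.68%), where the higher dose was all low and the lower dose all high in BioB. With 1 array left out it ran from -1.22 to -0.32 in the PFC and from -1.16 to -0.48 in the striatum. For methamphetamine, whose arrays were all high, it was -0.02 in the PFC (0.986) and -0.35 in the striatum (0.880; -0.02 without the array of cortical profile), with 0 genes passing in both. No tested member passed in these 4 comparisons, and 0 of 12 member tests had an unadjusted p below 0.05, beside 16.3% of the tests of all genes. The stimulant effect on Fos at 5 mg/kg in the pretreated minus the naive cohort was -0.22 ± 0.414 in the PFC (0.999, 0.0117% of genes) and 0.04 ± 0.453 in the striatum (0.976, 0.0586%). The 95% intervals, -1.07 to 0.63 in the PFC and -0.89 to 0.97 in the striatum, leave room for a difference of either sign. Striatum minus PFC effect was 0.17 ± 0.388 in the naive and 0.32 ± 0.498 in the pretreated cohort (limma adjusted p = 0.958 and 0.983), with 0 genes passing in either. In both sets of difference tests 0 of 6 member tests had an unadjusted p below 0.05, beside 10.6% of the tests of all genes between cohorts and 5.74% between regions.

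Within a group, arrays of the same replicate number from the 2 regions tended to be high or low in Fos together. The deviations from the group means correlated at r = 0.623 (permutation p = 0.00684, two-sided) and rho = 0.463 (permutation p = 0.0446) over 31 numbered pairs, with 100000 permutations of the numbers within groups. Without the 2 pairs farthest from the PFC median, r was 0.465. It was 0.704 in 11 high-BioB naive pairs, 0.659 in 8 low-BioB naive pairs and 0.512 in 12 pretreated pairs. The labels do not say that equal numbers are the same rats. Taken across genes within each pair of arrays, the 31 same-numbered pairs of the 2 regions correlated at a median of 0.203. The 70 pairs of the same group with other numbers had a median of -0.113. These medians describe pairs of arrays, and are not the correlation of a typical gene to set beside that of Fos.

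**Figure D3:**
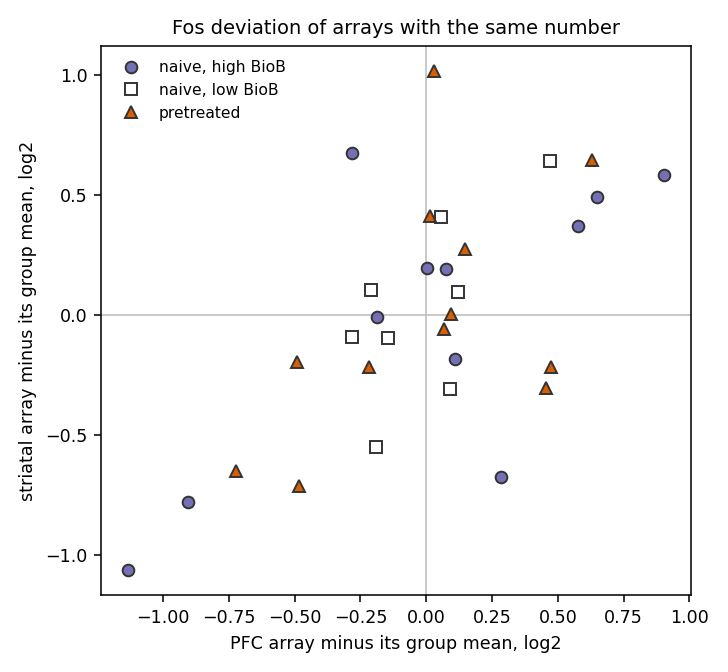
Deviation of each array's Fos log2 signal from its group mean, in the PFC (horizontal axis) and in the striatum (vertical axis), for 31 pairs of arrays of the same group and replicate number; symbols separate naive high-BioB, naive low-BioB and pretreated arrays. The points run from lower left to upper right, with r = 0.623.

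The genes whose signal was most like that of Fos were mostly other immediate early genes. Among 8531 genes in the PFC, the highest correlations over 31 arrays were Egr2 (r = 0.921), Nr4a1 (0.912), Arc (0.908), Egr1 (0.824) and Mical3 (0.785). In the striatum, over 32 arrays, they were Nr4a1 (0.886), Egr2 (0.882), Arc (0.868), Egr1 (0.852) and Egr4 (0.762). Egr1, Egr2 and Egr4 encode zinc finger factors, Nr4a1 an orphan nuclear receptor, Arc a protein of synaptic plasticity and Mical3 a flavoprotein monooxygenase. After group means were subtracted, r was 0.674 to 0.879 in the PFC and 0.504 to 0.685 in the striatum. The arrays share the MAS5 scaling and the BioB kinds, and these values are descriptions without a test. Among the family, Fos correlated with Jun at -0.04 in both regions and with Jund at -0.47 in the PFC and -0.46 in the striatum. With group means subtracted, r with Jund was 0.05 in the PFC and -0.33 in the striatum, and r with Jun was -0.13 and -0.04.

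Of these genes, all but Mical3 were also lower with methylphenidate than with methamphetamine in naive striatum at 5 mg/kg. The limma difference was -2.24 ± 0.396 for Egr2 (adjusted p = 0.00781), -1.13 for Nr4a1 (0.0239), -1.24 for Arc (0.0341), -1.03 for Egr4 (0.0333) and -0.58 for Egr1 (0.0428), so all 5 passed. Mical3 differed by 0.16 (0.634). With the BioB level as a block, all 5 calls were lost, at differences of -2.35 for Egr2, -1.08 for Nr4a1, -1.22 for Arc, -0.97 for Egr4 and -0.51 for Egr1 and adjusted p of 0.299 to 0.590. Each of the 5 was also lost without methylphenidate array 1 or 2, those of Arc, Egr1 and Egr4 without methamphetamine array 1 or 2 as well, and those of Egr1 and Egr4 without methylphenidate array 3. Against saline, Arc fell by 1.44 ± 0.267 on the log2 scale with methylphenidate (limma adjusted p = 0.0209), where 0.129% of genes passed. With the BioB block Arc differed by -1.43 (adjusted p = 0.345), and the call was lost without methylphenidate array 1 or 2 or saline array 2 or 3 (adjusted p of 0.0145 to 0.177 over the 8 arrays left out in turn). Egr2 differed by -1.57 (0.0692) and Nr4a1 by -0.99 (0.0614). These methylphenidate arrays are all low in BioB, and the genes were chosen for being like Fos on the same arrays, so they are no independent support.

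Fosb, read from its single probe set 1373759_at, encodes FosB and, by splicing, the truncated ΔFosB. The arrays do not say which splice form the signal came from. In pretreated striatum its log2 signal was 6.90, 6.75 and 6.71 on the amphetamine arrays, 6.85, 6.94 and 7.33 on the methamphetamine arrays and 7.04, 6.78 and 6.87 on the methylphenidate arrays, against 6.59, 6.48 and 6.47 on the saline arrays. All 9 stimulant arrays lay above all 3 saline arrays, without overlap. Of all 14218 genes, 2.24% had such a separation upwards in these groups. The mean difference was 0.39 ± 0.168 (95% interval 0.05 to 0.74), a signal 1.31 times that of saline, with an unadjusted p of 0.0264 and a limma adjusted p of 0.308 in the fit without filter, where 0.232% of genes passed. Fosb thus lay on the opposite side of saline from Fos on these arrays, though neither passed. In pretreated PFC the difference was 0.05 ± 0.259 (adjusted p = 1).

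In naive striatum, Fosb was 7.48, 7.86 and 8.03 on the amphetamine 1.25 mg/kg arrays, 7.68, 8.02 and 7.96 on the methamphetamine 1.25 mg/kg arrays and 8.04, 8.15 and 7.69 on the methamphetamine 5 mg/kg arrays. It was 6.84, 6.84 and 7.25 on the amphetamine 5 mg/kg arrays and 6.90, 6.84 and 6.86 on the methylphenidate arrays, against 6.69, 7.56, 7.4, 7.17 and 6.92 on the saline arrays. The first 3 groups, all high in BioB, reached above the saline arrays, while the low-BioB groups lay inside their range. The difference from saline was 0.81 ± 0.184 for methamphetamine 5 mg/kg (limma adjusted p = 0.0612, 0.155% of genes passing), 0.74 ± 0.184 for methamphetamine 1.25 mg/kg (0.0934, 0.141%) and 0.64 ± 0.184 for amphetamine 1.25 mg/kg (0.217, 0.141%). For methamphetamine 5 mg/kg the difference passed under several alternatives, with adjusted p of 0.037 without saline array 2, 0.0481 without the array of cortical profile, 0.0203 with quantile normalization, 0.048 with a constant added before log2 and 0.0488 without the trend. This difference did not pass with the BioB level or the replicate number as a block, within the high-BioB arrays, or with the naive cohort alone. Without any other 1 array of the 2 groups it did not pass, with adjusted p up to 0.19. It was -0.17 for amphetamine 5 mg/kg and -0.28 for methylphenidate (0 and 0.0633% of genes passing). Within the high-BioB arrays the mean difference was 0.66 (adjusted p = 0.056), and within the low-BioB arrays it was -0.13.

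Between stimulants at 5 mg/kg in naive striatum, methamphetamine exceeded amphetamine in Fosb by 0.98 ± 0.205 (limma adjusted p = 0.0242 over the genes, of which 0.760% passed, and 0.000362 over the pairs). Methylphenidate minus methamphetamine was -1.10 ± 0.205 (0.0136 over the genes, of which 0.584% passed, and 0.000161 over the pairs), and methylphenidate minus amphetamine was -0.11 (adjusted p = 1). Both calls set low-BioB against high-BioB arrays, and with the BioB level as a block the differences were 0.81 ± 0.308 and -0.93 ± 0.308, with adjusted p of 0.637 and 0.464. Leaving out 1 array at a time gave 0.0297 to 0.133 for the first, which was lost without amphetamine array 1 or 2 or methamphetamine array 1 or 2. It gave 0.0082 to 0.0834 for the second, which was lost without methamphetamine array 2 or methylphenidate array 1 or 2. In naive PFC, Fosb at 5 mg/kg amphetamine minus 1.25 mg/kg was -1.12 ± 0.318 (adjusted p = 0.046, 3.6% of genes passing), again low-BioB against high-BioB arrays. With the BioB block it was -1.02 ± 0.483 (adjusted p = 0.686), and with 1 array left out its adjusted p was 0.0463 to 0.189, passing in the run without 1.25 mg/kg array 1 alone. The dose call was also lost without the trend (limma adjusted p = 0.0601), with the naive cohort alone (0.0796) and with quantile normalization (0.083). Both striatal pair calls were lost with the naive cohort alone as well (0.0792 and 0.0663).

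**Figure D4:**
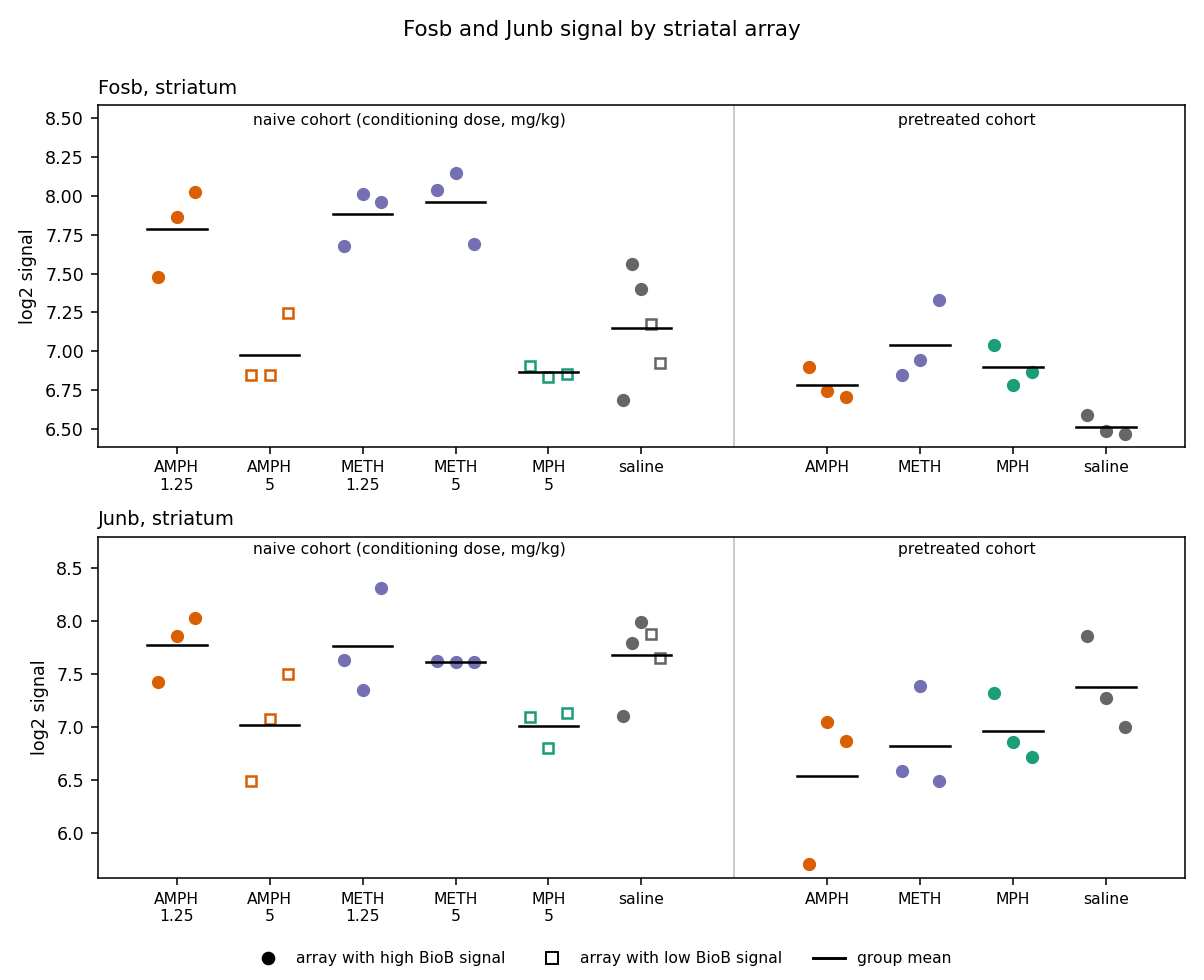
Log2 signal (vertical axis) of Fosb and Junb on every striatal array by group, with stimulant groups left of their saline group; filled circles are high-BioB and open squares low-BioB arrays, and bars are group means. In the pretreated cohort all 9 stimulant arrays lie above the 3 saline arrays for Fosb, and 6 of 9 lie below them for Junb.

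Junb, read from its single probe set 1387788_at, encodes a Jun protein that is itself induced by activity and that restrains Jun in several cell types. In pretreated striatum it was 5.71, 7.05 and 6.87 on the amphetamine arrays, 6.59, 7.39 and 6.50 on the methamphetamine arrays and 7.32, 6.86 and 6.71 on the methylphenidate arrays, against 7.86, 7.27 and 7.00 on the saline arrays. Of these stimulant arrays 6 of 9 lay below every saline array and none lay above them. The difference was -0.60 ± 0.267 (95% interval -1.15 to -0.05; unadjusted p = 0.0327, limma adjusted p = 0.329). In pretreated PFC it was 5.46, 6.96 and 6.73 with amphetamine, 6.80, 6.42 and 6.61 with methamphetamine and 7.14, 7.25 and 7.11 with methylphenidate, against 6.96, 7.29 and 7.30 with saline. Methylphenidate lay inside the saline range, and the methamphetamine arrays lay below it, as in 5.32% of all 14218 genes. The mean difference was -0.46 ± 0.221 (unadjusted p = 0.0448, adjusted p = 0.846, 0.0422% of genes passing).

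In the naive cohort Junb differed by -0.22 in the PFC (limma adjusted p = 0.799, 0.0352% of genes passing) and by -0.25 in the striatum (0.767, 0.0211%). Its levels followed the same split as Fos. In naive striatum it was 6.50 to 7.50 on the 6 low-BioB stimulant arrays, against 7.66 and 7.87 on the 2 low-BioB saline arrays, and on the high-BioB arrays it was 7.35 to 8.32 with stimulants, against 7.1 to 8 with saline. In naive PFC it was 6.87 to 7.38 on the low-BioB stimulant arrays, against 7.59 and 7.62 on the low-BioB saline arrays. The low-BioB saline arrays of both regions are those whose Hbb signal was low. Among all 14218 genes, 4.82% in the striatum and 3.95% in the PFC had low-BioB stimulant arrays all below the 2 low-BioB saline arrays, as Junb had. Within the high-BioB arrays the sign turned, at 0.004 in the PFC and 0.09 in the striatum.

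Jun, the founding member and the main partner of Fos, was the tested member that differed between the regions. In the naive saline controls probe set 1369788_s_at read 9.12, 8.99, 8.89, 9.11 and 9.49 in the striatum, against 10.22, 10.29, 9.95, 10.52 and 10.47 in the PFC. In the pretreated saline controls it read 9.12, 9.55 and 8.95 in the striatum, against 10.07, 10.15 and 10.19 in the PFC. No striatal control array reached the lowest PFC control array in either cohort. Striatum minus PFC was -1.17 ± 0.158 in the naive controls (limma adjusted p = 3.09e-08) and -0.93 ± 0.205 in the pretreated controls (0.000363), a striatal signal 0.445 and 0.524 times that of the PFC. Jun was the 1 of the 3 tested members that passed, in both cohorts, where 40.4% and 27% of all genes passed in either direction and 19.2% and 14% passed as lower in the striatum. The separation without overlap was found downwards in 12.8% of all genes in the naive and 23% in the pretreated controls. Such a difference between regions is thus common on these arrays.

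The other 2 Jun probe sets had the same sign with smaller differences. Striatum minus PFC was -0.94 and -0.67 for 1389528_s_at in the naive and pretreated controls, and -0.42 and -0.49 for 1374404_at. For 1374404_at the naive controls overlapped, at 6.92 to 7.86 in the striatum and 7.46 to 8.12 in the PFC. Within the PFC and the striatum, 1389528_s_at correlated with the probe set used at 0.597 and 0.351, and 1374404_at at 0.206 and 0.359. Over all arrays, Jun was 8.74 to 9.624 on 31 striatal arrays and 9.616 to 10.52 on 31 PFC arrays, so the ranges overlapped slightly. The striatal array of cortical marker profile read 10.17, inside the PFC range. With stimulants, Jun differed from saline by -0.18 ± 0.104 in naive PFC and -0.04 ± 0.132 in pretreated PFC, and by 0.16 ± 0.144 in naive and 0.08 ± 0.186 in pretreated striatum, with limma adjusted p of 0.63 or above. The stimulant effect did not differ between the regions beyond its error, by 0.34 ± 0.184 in the naive and 0.12 ± 0.236 in the pretreated cohort (adjusted p = 0.794 and 0.983). Ordered by mean, neighbouring groups overlapped in each of the 9 pairs in both regions. The 2 genes most like Jun were Tmem150c (r = 0.703) and Dpp6 (0.702) in the PFC, and Ephb3 (0.735) and Clstn1 (0.720) in the striatum.

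**Figure D5:**
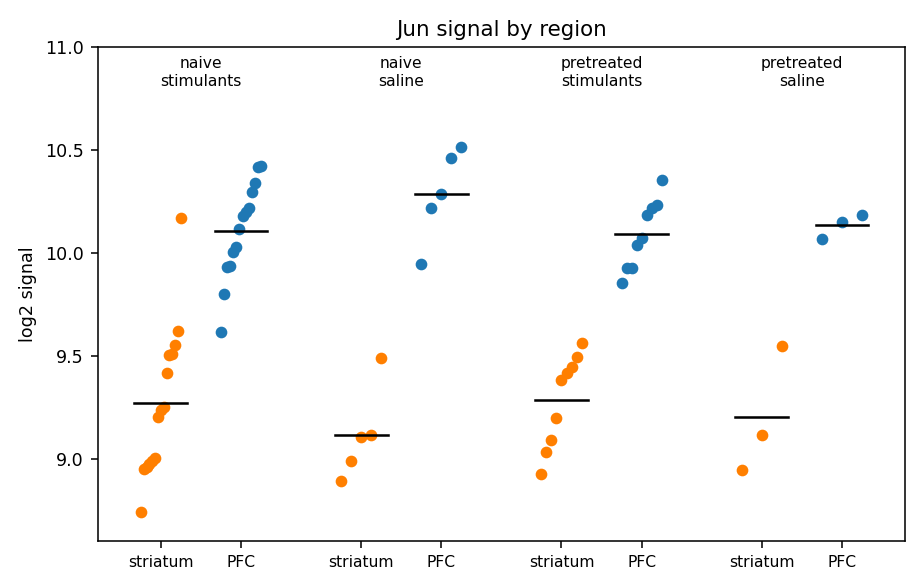
Jun log2 signal (vertical axis) in the striatum and, to its right, in the PFC, for stimulant and saline arrays of each cohort; points are arrays and bars are means. Apart from 1 striatal array at 10.17, the striatal arrays lie at 9.624 or below and the PFC arrays at 9.616 or above, so the ranges overlap slightly.

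Jund, which encodes the Jun protein present in resting cells, was the steadiest of the tested members. Probe set 1393138_at read 11.93 to 12.56 over all 63 arrays, with an SD of 0.14 in the PFC and 0.12 in the striatum. The stimulant groups differed from saline by 0.06 and -0.004 in naive and pretreated PFC, and by -0.03 and -0.01 in naive and pretreated striatum. All 4 of these 95% intervals lay within -0.18 to 0.18. Striatum minus PFC was 0.07 in the naive controls (limma adjusted p = 0.469) and -0.07 in the pretreated controls (0.633). The genes most like Jund were Rragd (r = 0.819) and Ubxn4 (0.801) in the PFC, and Tdrd7 (0.721) and Loxl1 (0.691) in the striatum.

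In the saline controls, Fos was also lower in the striatum than in the PFC, by -0.68 ± 0.334 in the naive (limma adjusted p = 0.0998) and by -0.64 ± 0.431 in the pretreated cohort (0.285). The naive arrays overlapped, and the 3 pretreated striatal arrays lay below the 3 PFC arrays. Between arrays of the same number, Fos was lower in the striatum in all 5 naive pairs, by -0.61, -0.88, -0.83, -0.70 and -0.36, and in all 3 pretreated pairs, by -0.52, -0.64 and -0.77. Of all genes, 24.4% were lower in all 5 naive pairs and 31.6% in all 3 pretreated pairs. With the replicate number as a random block, the adjusted p were 0.0579 in the naive and 0.206 in the pretreated controls. Without naive PFC saline array 1, the lowest of that group, the naive difference was -0.96 and passed, with an adjusted p of 0.0194. Fosb differed by 0.19 and 0.11 and Junb by 0.12 and 0.19 in the naive and pretreated controls, less than the spread between the arrays.

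Fosl1 and Fosl2 encode the Fos-related antigens Fra-1 and Fra-2. Fosl1 (1368489_at) ranged from 1.84 to 5.29 in the PFC and from 0.34 to 6.32 in the striatum, with an SD of 0.74 and 1.51. Fosl2 (1383860_at) ranged from 1.11 to 5.63 in the PFC and from 0.47 to 6.78 in the striatum, with an SD of 1.13 and 1.75. Both spread widely within single groups at signals among the lowest of the array, so they are not compared further. The second Fosl2 probe set, 1387530_a_at, averaged 3.62 and correlated with the first at 0.414 in the PFC and 0.57 in the striatum. The further probe sets of Fos (1371283_at, mean 3.11) and of Jund (1387762_s_at, mean 4.41, and 1375768_at, mean 2.40) were equally dim, and their correlations with the probe set used lay between -0.36 and 0.28.

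The 250 bases before the annotated start were read for the members with a window in the RefSeq tables (GRCr8), namely Fosb, Fosl1, Fosl2, Junb and Jund, and for 5 of the 6 genes most like Fos. The motifs were the CRE (TGACGTCA), its shorter core (TGACG, which the CRE holds on each strand), the AP-1 site (TGACTCA) and the CArG box that SRF binds, on both strands. Of 33469 windows of that length, 1.59% held the CRE, 18.2% the core, 4.05% the AP-1 site and 1.5% the CArG box. The windows of Junb and Jund, both Jun proteins but one known as induced by activity and the other as present at rest, and of Egr2, the gene most like Fos in the PFC, are shown 5′ to 3′ with motif letters in capitals. They lie at chr19:40080876-40081125 (plus strand), chr16:18769772-18770021 (minus strand) and chr20:21054442-21054691 (minus strand).
Junb: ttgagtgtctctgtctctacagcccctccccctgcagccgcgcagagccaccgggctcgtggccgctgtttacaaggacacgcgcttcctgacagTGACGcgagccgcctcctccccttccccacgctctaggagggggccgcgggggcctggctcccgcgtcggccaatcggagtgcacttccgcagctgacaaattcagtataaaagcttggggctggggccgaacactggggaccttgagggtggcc
Jund: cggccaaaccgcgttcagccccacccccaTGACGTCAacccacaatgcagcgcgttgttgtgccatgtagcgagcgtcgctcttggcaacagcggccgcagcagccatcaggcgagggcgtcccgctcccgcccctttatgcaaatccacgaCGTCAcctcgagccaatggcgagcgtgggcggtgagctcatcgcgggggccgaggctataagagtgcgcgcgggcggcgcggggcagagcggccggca
Egr2: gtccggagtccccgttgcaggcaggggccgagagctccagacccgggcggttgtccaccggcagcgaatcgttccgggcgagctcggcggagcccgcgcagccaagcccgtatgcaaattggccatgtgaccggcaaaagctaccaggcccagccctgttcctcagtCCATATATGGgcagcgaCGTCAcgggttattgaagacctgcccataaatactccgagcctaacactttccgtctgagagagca
The Junb window held 1 core, 155 bases before the start. The Jund window held the CRE 221 bases before the start, and a further core at 98. The Egr2 window held a CArG box at 83 and a core at 66, and the Egr1 window held 2 CArG boxes, at 105 and 83, and 2 cores. There were 4 cores in the Nr4a1 window and 2 each in those of Fosl1 and Egr4. The windows of Fosb, Fosl2 and Mical3 held none of these letters, and the AP-1 site was in none of the 10 windows read. A match describes letters and not binding.

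Around the family, none of 5 lists of related genes had a member that passed limma in any of the 4 mean comparisons. At an unadjusted p of 0.05, 7 of 52 tested list genes passed in naive PFC, 4 of 52 in pretreated PFC, 9 of 50 in naive striatum and 14 of 50 in pretreated striatum, and the smallest adjusted p were 0.133, 0.0863, 0.14 and 0.107. The shares of all genes with an unadjusted p that low were the 8.73%, 5.45%, 11.5% and 16.2% given above.

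Of 29 immediate early genes that are induced with Fos, 27 were named and 21 tested in the PFC and 19 in the striatum. Below zero were 15 of 21 in naive PFC (median -0.16), 13 of 21 in pretreated PFC (-0.04), 6 of 19 in naive striatum (0.07) and 12 of 19 in pretreated striatum (-0.15), beside 49.1%, 53.5%, 49.1% and 52.7% of all genes. The list thus had no common direction. The smallest p belonged to Ier3 (0.37) and Gadd45g (-0.33) in naive PFC and to the clock gene Per1 (0.54 ± 0.119, limma adjusted p = 0.0863) and Klf2 (0.66) in pretreated PFC. In naive striatum they belonged to Gadd45b (0.58, adjusted p = 0.14) and Ptgs2, which encodes cyclooxygenase-2 (0.52, 0.178), and in pretreated striatum to the synaptic scaffold gene Homer1 (-0.35, 0.107) and the kinase gene Plk2 (-0.38, 0.114).

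Among 14 tested kinases and factors upstream of Fos, of 20 listed, the medians were -0.04, 0.05, -0.03 and -0.05 in naive PFC, pretreated PFC, naive striatum and pretreated striatum. Creb1, which encodes CREB, differed by 0.37 in both naive and pretreated PFC (limma adjusted p = 0.37 in the naive), beside Rps6ka2 (-0.21) and Elk4 (0.19). In naive striatum Elk4 (-0.27) and Camk4 (-0.21) had the smallest p, and in pretreated striatum Rps6ka3, the kinase RSK2 (-0.45, adjusted p = 0.113), and Camk4, a CREB kinase (-0.45, 0.117). Dusp1, a phosphatase that ends MAP kinase signalling and one of 5 tested negative regulators of 9 listed, differed by -0.61 ± 0.15 in naive PFC (adjusted p = 0.133) and by -0.40 in naive striatum (0.351). The other negative regulators of smallest p were Cop1 (0.19 in naive PFC, 0.13 in pretreated PFC, 0.08 in pretreated striatum), Dusp6 (-0.24 in pretreated PFC) and Fbxw7 (0.13 in naive and 0.11 in pretreated striatum).

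Of 12 listed dimer partners 4 were tested in the PFC and 3 in the striatum. Atf4, Maf and Mafg stayed within 0.14 of zero in all cases of smallest p. Of 16 listed AP-1 target genes 8 were tested in the PFC and 9 in the striatum, and 7, 5, 7 and 8 of them lay below zero, with medians of -0.06, -0.10, -0.10 and -0.22 in naive PFC, pretreated PFC, naive striatum and pretreated striatum. Over all genes the medians lay within 0.012 of zero. In pretreated striatum the smallest p were those of the neuropeptide genes Nts (-0.73, limma adjusted p = 0.248) and Vgf (-0.70, 0.256). In naive striatum they were those of the AMPA receptor subunit gene Gria2 (0.21, 0.229) and Nts (-0.55). In the PFC, Ccnd1 (-0.31) and Penk, which encodes the enkephalins (0.25), came first in the naive and Vgf (-0.41) and Penk (-0.24) in the pretreated cohort.

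The levels of cell type markers differed between the arrays of some of the same comparisons, and their part in the member values was not tested. In pretreated striatum, where Fos and Junb lay below and Fosb above saline, the mean log2 signal of 5 of 6 listed cortical neuron markers was 5.95 to 7.60 on the stimulant arrays, against 5.43 to 6.16 on the saline arrays. That of 9 of 10 listed striatal projection neuron markers was 11.84 to 12.16 with stimulants, against 12.23 to 12.43 with saline. None of the 31 markers tested in pretreated striatum passed limma (smallest adjusted p = 0.144), and 7 had an unadjusted p below 0.05, beside 16.2% of all genes. They were Slc17a7 (1.18) and Bhlhe22 (1.33) of cortical neurons, and Mag (-0.60) and Opalin (-0.40) of oligodendrocytes. The others were Gfap (0.47) and Slc1a3 (0.23) of astrocytes and Ttr (1.61) of choroid plexus. Among striatal projection neuron markers, Tac1 (-0.46) had the smallest unadjusted limma p, at 0.181. In pretreated PFC the mean of the 9 striatal projection neuron markers was 7.59 to 8.46 with stimulants, against 8.32 to 9.03 with saline. Oligodendrocyte markers were 11.51 to 12.02 in naive PFC with stimulants, against 11.62 to 12.12 with saline, and their member Mag fell by 0.53 on the log2 scale (limma adjusted p = 0.0483), the single marker that passed. In naive striatum the cortical markers were 5.51 to 7.65 on 14 stimulant arrays and 9.21 on the array of cortical profile, against 5.54 to 6.39 with saline. Blood markers, led by haemoglobin, were 9.06 to 11.45 in naive PFC and 9.26 to 11.37 in naive striatum with stimulants, against 5.47 to 10.23 and 6.50 to 10.30 with saline. Endothelial, microglial, astrocyte, meningeal and choroid plexus markers had no member that passed. None of the 41 markers named, of 47 listed, was at the floor on every array.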

How the data were processed

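Gene expression was measured on 63 Affymetrix rat arrays of 31099 probe sets. The authors deposited a linear intensity for each probe set and array, made with MAS5 per the submitters' processing notes; MAS5 scales each array to a common target, so a change in total RNA cannot be seen. Gene names came from the platform annotation, in which 20832 probe sets have 1 symbol, 436 several and 9831 none. Of a gene's probe sets the brightest by mean log2 over all arrays was kept, for 14218 genes.

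Values below 1 (18232 of them) were set to 1 before log2 was taken. Genes in the lowest 40% of mean signal of a region were not tested, and 8531 were. Tests used limma 3.58.1 in R 4.3.3 with 1 mean per group, all arrays of a region in the fit (residual degrees of freedom: 21 for PFC, 22 for striatum, 43 for both) and an intensity trend in eBayes. The Benjamini-Hochberg adjustment ran over all genes of a comparison, with a threshold of 0.05. The script was tested on simulated data. The number of arrays limits the precision.

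The text names all 7 members and their further probe sets. From 5 lists of related genes it names those that passed in a mean comparison and up to 2 with the smallest p per list and comparison, and it names the 5 genes most correlated with Fos and 2 for each other tested member, per region. The members, lists and tests were chosen with earlier results of these data known. Alternatives were a constant added before log2, quantile normalization, other filters, all probe sets, no trend, 1 cohort only, BioB level and replicate number as blocks, and arrays left out. The replicate numbers of different groups did not deviate together (median correlation 0.034 over 126 pairs in the PFC and -0.02 over 135 in the striatum), so they do not pair the groups. No table of detection calls was used here. No genome was used here, and the upstream windows come from RefSeq.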

Additional observations from a re-analysis of the deposited data

Results flagged for a closer look

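In naive striatum, the lowest of the 5 saline arrays had a Fos log2 signal of 8.89, apart from the next at 10.05, a gap of 0.744 of the group's range. Fosl1 on the same group was highest on 1 array at 6.32, apart from the next at 3.31 (0.796 of the range). Over 14 tests of groups for such an array, chance flags about 1 in 20.

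The difference of Fosb between methylphenidate and saline in the striatum was 0.38 in the pretreated cohort and -0.28 in the naive cohort at 5 mg/kg, with every methylphenidate array of a cohort on that side of its saline mean, a gap of 0.66 that was not tested. The naive methylphenidate arrays are low in BioB and the pretreated ones high. The difference of Jun between methylphenidate and saline in the pretreated cohort was 0.21 in the striatum and -0.14 in the PFC, a gap of 0.36 that was not tested either.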

How the results depend on the processing

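The count of tested members that passed in the mean comparisons (0), in the region comparison (Jun in each of 2 cohorts) and in the differences of effects (0) was the same under every alternative run, except that Fos also passed between regions without naive PFC saline array 1 (3 calls in place of 2). Across the 16 stimulant groups the count of 0 became 1 with all probe sets and 3 with the replicate block, across the 4 dose comparisons the count of 0 became 2 with all probe sets and 1 with no filter, and across the 14 pairs the count of 1 became 2 with all probe sets or no filter, 3 with the replicate block, and 0 with the BioB block, no trend, only 1 cohort or quantile normalization. With no filter, the calls were all of Fosb. With all probe sets, the Fos call of the main fit was lost (limma adjusted p = 0.0533) and was not among the 2 in the pairs. The cause of these moves was not tested. Leaving out 1 array gave counts of 0 to 1 in both the stimulant groups and the pairs.

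With the replicate block, Fos passed against saline in naive PFC for amphetamine 5 mg/kg (limma adjusted p = 0.0261) and methylphenidate (0.0143). In naive striatum it passed against saline for methylphenidate (0.0311). Among the pairs at 5 mg/kg, Fos passed in naive PFC for methamphetamine minus amphetamine (0.0268) and methylphenidate minus methamphetamine (0.0181). In naive striatum it passed for methylphenidate minus methamphetamine, but not for methamphetamine minus amphetamine. The numbers do not pair the groups, so these are not paired results. Signs turned for Fos in naive striatum within high BioB (0.203) and in the striatal cohort difference with the replicate block (-0.024). They turned within high BioB for Fosb in naive PFC (0.266), Junb in naive PFC (0.004) and naive striatum (0.087) and Jund in naive striatum (0.005), and within low BioB for Fosb in naive striatum (-0.126), Jun in naive striatum (-0.005) and Jund in naive PFC (-0.017). With quantile normalization, Fosb (-0.028) and Jund (0.014) turned in pretreated PFC, and Jund turned in naive striatum with the replicate block (0.029).

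Leaving out 1 array turned the sign of small differences. For Fos these were naive effect striatum minus PFC (-0.098 to 0.451), naive PFC methamphetamine 1.25 mg/kg (-0.183 to 0.383), 5 mg/kg (-0.206 to 0.24) and their difference (-0.306 to 0.26), naive PFC methylphenidate minus amphetamine (-0.236 to 0.14), naive striatum amphetamine 1.25 mg/kg (-0.447 to 0.235) and methamphetamine 5 mg/kg (-0.158 to 0.231), the cohort difference in PFC (-0.387 to 0.059) and striatum (-0.127 to 0.308), and pretreated methylphenidate minus amphetamine in PFC (-0.004 to 0.671) and minus methamphetamine in striatum (-0.379 to 0.486). For Fosb they were naive PFC (-0.199 to 0.161), pretreated PFC (-0.218 to 0.246) and naive striatum methylphenidate minus amphetamine (-0.181 to 0.021). For Jun they were pretreated striatum (-0.048 to 0.253) and its difference from PFC (-0.004 to 0.296), and for Jund naive striatum (-0.065 to 0.01), pretreated PFC (-0.066 to 0.033) and pretreated striatum (-0.031 to 0.026). For Junb they were naive PFC methamphetamine 1.25 mg/kg (-0.123 to 0.243) and 5 mg/kg (-0.026 to 0.226), naive striatum amphetamine 1.25 mg/kg (-0.059 to 0.259), methamphetamine 1.25 mg/kg (-0.193 to 0.291) and 5 mg/kg (-0.214 to 0.01), and pretreated PFC methylphenidate (-0.129 to 0.04). For Mical3 it was naive striatum methylphenidate minus methamphetamine (-0.045 to 0.284).

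Fos in pretreated PFC kept its sign under each alternative, at -1.05 to -1.02 with adjusted p of 0.17 to 0.472, and at -1.16 to -0.93 with 1 array left out. Groups of 2 to 5 arrays and the low signals of Fosl1 and Fosl2 limit what could be seen. Detection calls were not used.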
